A study of Mus musculus with 14 samples.

Results

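Growth factors of the EGF family, their receptors and the inhibitors that the receptor induces against itself were followed across freshly sorted mouse satellite cells, the resident stem cells of skeletal muscle. The 8 genes were taken by symbol: the ligands Hbegf, Areg, Ereg and Tgfa, the receptors Egfr and Erbb2, and the feedback inhibitors Errfi1 and Lrig1. They are 8 of the 49671 genes in each of 2 count tables. All 8 were found in both tables and passed the filter on low counts in both, where 20698 and 21885 genes were tested.

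RNA was sequenced from 14 libraries of 1000 sorted cells each, taken from resting triceps, pectoral and hind-limb muscle of C57BL/6J mice. The first table compares 4 libraries labelled FosGFP+ with 4 labelled FosGFP-, separated by a fluorescent reporter of the transcription factor gene Fos, from FosGFP mice 4 months old. The second compares 3 libraries labelled FoscKO, which carry a conditional knockout of Fos, with 3 labelled Control, at 6 months of age. Cells were kept if they carried B1-integrin and CXCR4 and lacked the blood and vessel markers CD45, CD31, CD11b and Ter119 as well as Sca1. As written in the series text, FoscKO and Control cells were both sorted as FosGFP+. The text names 4 mice for the first dataset and 3 for the second. Libraries are not linked to mice in the labels, so p-values measure the spread between these libraries, which may be technical. What drives the deletion in FoscKO and which exons it removes are not given in the sources used here.

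EGF family ligands are made as membrane-anchored precursors that are cut free by ADAM metalloproteases and then bind EGFR on the same or a neighbouring cell. Bound receptors pair with each other or with ERBB2, which has no ligand of its own, and signal through RAS, RAF, MEK and ERK to transcription factors that include Fos. The same signal induces its own brakes: the product of Errfi1 (MIG6) binds the kinase domain and shuts it off, and LRIG1 promotes loss of the receptor from the cell. Satellite cells rest in quiescence until injury, and Fos and other immediate early genes are induced soon after it. Dissociation and sorting of muscle are also known to induce immediate early genes.

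Promoters were read from RefSeq (GRCm38.p6), which holds 7 windows for 6 of the 8 genes, with Hbegf and Ereg absent from the table. The windows run from 250 bases before to 50 bases after a start site. A cyclic AMP response element (CRE, TGACGTCA, searched on both strands) was found in 2 windows, that of Areg and the second of 2 for Errfi1, and in 1.79% of all 32851 promoters of the same length. The AP-1 site that Fos and Jun proteins bind (TGANTCA, both strands) was found in none of the 7 windows and in 7.81% of all promoters. The CArG box of serum response factor (both strands) was found in none of the 7 and in 1.63% of all. No match overlapped another motif, and a match is a description of these letters only. The 250 bases before the start are shown for the 2 windows that hold a CRE, 5′ to 3′ on the plus strand, with the CRE in capitals. It begins at position -61 in Areg (chr5:91139349-91139598) and at -51 in Errfi1 (chr4:150854820-150855069), with the start site as position 1. The Errfi1 stretch also holds 124 annotated exonic bases, counted over genes on both strands, and lies downstream of the annotated gene start (chr4:150853919).
Areg: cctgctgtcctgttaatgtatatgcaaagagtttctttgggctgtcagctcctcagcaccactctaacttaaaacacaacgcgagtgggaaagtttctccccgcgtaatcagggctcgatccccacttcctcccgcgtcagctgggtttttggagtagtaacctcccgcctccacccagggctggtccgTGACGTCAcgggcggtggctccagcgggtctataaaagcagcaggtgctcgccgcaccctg
Errfi1: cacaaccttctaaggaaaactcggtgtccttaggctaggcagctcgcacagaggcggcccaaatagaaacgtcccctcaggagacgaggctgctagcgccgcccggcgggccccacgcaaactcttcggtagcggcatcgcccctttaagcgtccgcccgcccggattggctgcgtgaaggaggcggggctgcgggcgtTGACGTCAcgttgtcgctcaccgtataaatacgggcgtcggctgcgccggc

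The genes lie on 5 chromosomes in GRCm38, and all are protein-coding. Hbegf occupies chr18:36504927-36515805 on the minus strand. Ereg (chr5:91074622-91093646) and Areg (chr5:91139599-91148432) are neighbours on the plus strand with 45952 bases between them. Tgfa lies at chr6:86195223-86275719 on the plus strand and Lrig1 at chr6:94604529-94700158 on the minus strand. Egfr (chr11:16752203-16918158) and Erbb2 (chr11:98412470-98437716) share chromosome 11, on the plus strand, and Errfi1 is at chr4:150853919-150868892, also on the plus strand. The library kit does not mark strand, and exons of genes on the opposite strand overlap 141 exonic bases of Ereg, 118 of Tgfa, 9 of Erbb2 and 144 of Lrig1. Reads from those stretches cannot be assigned to a strand.

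Reads in genes ran from 3806776 to 5983711 per library in FosGFP+ and from 2652230 to 4067543 in FosGFP-, which were 17.0% to 23.2% and 10.3% to 14.1% of their reads. FoscKO libraries held 4797954 to 10241655 and Control libraries 5326686 to 6930696 such reads. An even background of reads was estimated from 1469 olfactory, vomeronasal and taste receptor genes. It made up 6.39% to 10.6% of the reads in genes in FosGFP+, 13.0% to 19.4% in FosGFP-, 3.98% to 11.7% in FoscKO and 9.08% to 10.6% in Control. Fos itself was lower in the libraries labelled FosGFP+ (3098 to 5398 CPM, counts scaled to a common library size) than in those labelled FosGFP- (7908 to 12883 CPM), so directions below are between labels and not between levels of Fos mRNA. In the second table Fos stood at 8442, 2876 and 3805 CPM in FoscKO and at 4733 to 5044 CPM in Control. That count checks nothing if the reads lie outside the deleted part. FoscKO replicate 1 stands apart, with the most reads in genes, the lowest even background and the highest Fos of its group.

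Markers of satellite cells were present in all groups. The summed level of 12 satellite cell markers was 10479 to 13805 CPM in FosGFP+, 5273 to 8060 in FosGFP-, 7588 to 13989 in FoscKO and 7047 to 9947 in Control. Markers of endothelium summed to at most 376 CPM, those of leukocytes to at most 162 CPM and those of Schwann cells to at most 58.1 CPM in any library. Smooth muscle and pericyte markers summed to 254 to 836 CPM in the first table, 810 to 1492 CPM in FoscKO and 659 to 950 CPM in Control. Tenocyte markers reached 660 CPM in FosGFP+ and 1095 CPM in FosGFP-, and 47.6 CPM at most in the second table. The 12 fibro-adipogenic markers summed to 3884 to 5150 CPM in FosGFP+ and 2409 to 5169 CPM in FosGFP-. They summed to 5383 to 10088 CPM in FoscKO and 6136 to 7735 CPM in Control, carried by Gsn and Col3a1. Ly6a, which encodes Sca1, stayed at or below 2.28 CPM in every library. Because the sort kept cells that lack Sca1, a low Ly6a level does not measure the source of the other markers.

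Levels were compared between genes as CPM per kilobase of exon. In FosGFP+ cells the order was Errfi1 (1401 ± 248, SD, n = 4), Lrig1 (82.2 ± 11.0), Egfr (42.1 ± 5.14), Hbegf (37.5 ± 7.43), Areg (6.17 ± 2.74), Erbb2 (5.76 ± 2.76), Ereg (4.21 ± 0.664) and Tgfa (2.07 ± 0.498) CPM per kb. The library ranges of neighbours in this order overlapped between Egfr and Hbegf, between Areg and Erbb2 and between Erbb2 and Ereg, so those pairs are not ordered beyond their spread. Errfi1, the intracellular inhibitor, stood above the other 7 genes with no overlap, in each group. Errfi1, Lrig1, Egfr and Hbegf held the first 4 places in the same order in FosGFP-, FoscKO and Control, with Errfi1 at 708 ± 194 (SD, n = 4), 685 ± 212 (SD, n = 3) and 843 ± 46.6 (SD, n = 3) CPM per kb. Ranges of Egfr and Hbegf overlapped in all 4 groups, and those of Lrig1 and Egfr in FosGFP-. Tgfa had the lowest mean in FosGFP+ and Ereg in the other 3 groups, where its range overlapped that of Areg in FosGFP- and that of Tgfa in FoscKO. The 2 tables were scaled apart, so levels are not compared between them.

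**Figure D1:**
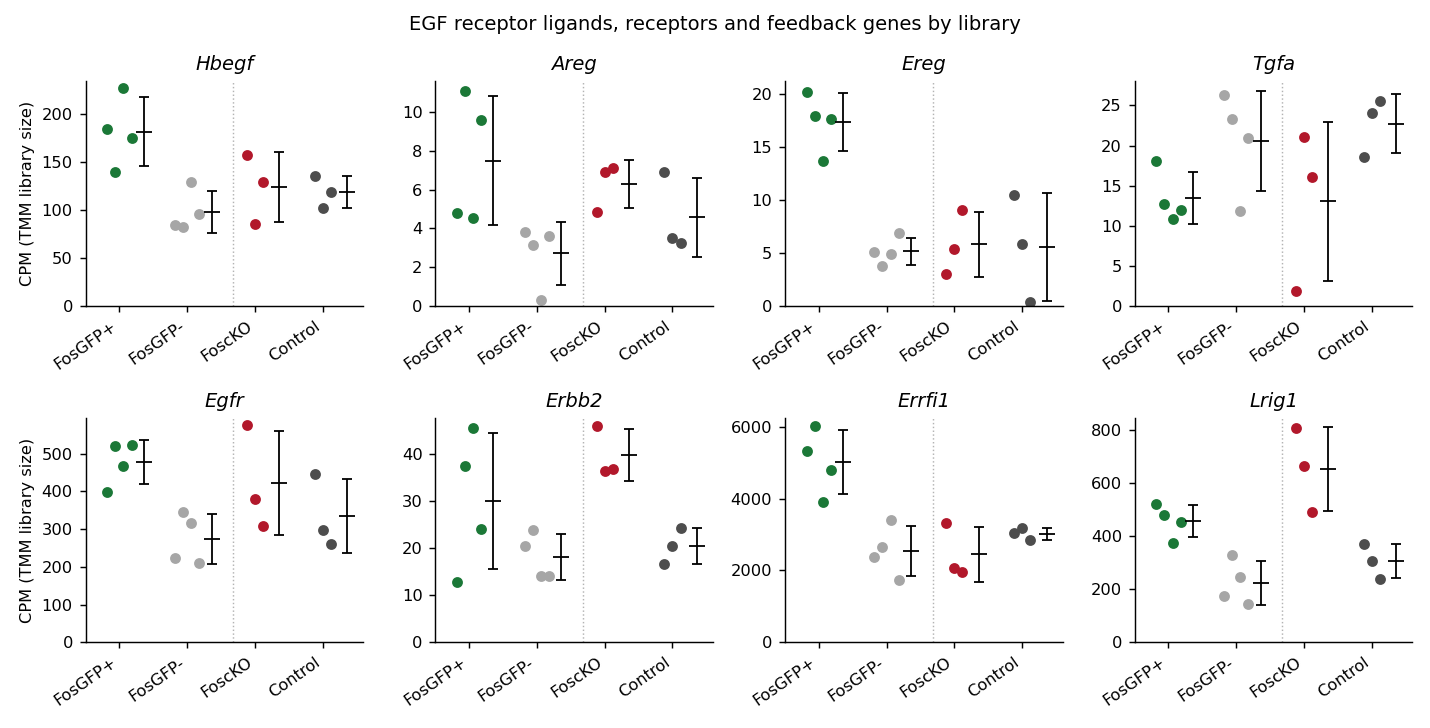
Level of each gene in each library, in CPM on the TMM library size, with 1 point per library and, to the right of each group, the mean and SD (n = 4, 4, 3 and 3). Points of FosGFP+ and FosGFP- do not overlap for Hbegf, Areg, Ereg, Egfr, Errfi1 and Lrig1, and points of FoscKO and Control do not overlap for Erbb2 and Lrig1. The dotted line separates 2 tables that were scaled apart.

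The first comparison is between satellite cell libraries labelled as positive for the Fos reporter and libraries labelled as negative for it. Of the 8 genes, 5 were higher in libraries labelled FosGFP+ (edgeR, adjusted p under 0.05): Hbegf, Ereg, Egfr, Errfi1 and Lrig1. They are 2 ligands, the receptor and both inhibitors, and rose 1.74-fold (Egfr) to 3.36-fold (Ereg). The background is 10.3% of all genes tested called higher and, among the 4002 genes of at least 50 CPM, 41.9%, a class that holds Hbegf, Egfr, Errfi1 and Lrig1. Libraries did not overlap for 6 of the 8, all higher in FosGFP+, as for 12.9% of all genes tested. None of the 8 was called lower, against 1.85% of all genes, and none was lower without overlap, against 6.45%. By unadjusted p, 6 were higher and none lower, beside 5457 of all 20698 genes tested in either direction. DESeq2 and limma-voom called none of the 8 lower. With total counts 3 were called higher and 1 lower, with TMM from genes of at least 50 CPM 2 higher and 1 lower, and with the even background taken off 3 higher. The median log2 fold change of the 8 was 0.94, beside -0.18 over all genes tested and 0.57 over genes of at least 50 CPM. In this bulk RNA, more cells of a kind and more RNA per cell cannot be told apart. Of 12 satellite cell markers, 5 (Vcam1, Sdc4, Itgb1, Chrdl2 and Des) were called higher and none lower, with a median of 0.32. All 5 are among the 11 of these markers that have at least 50 CPM. In that class 41.9% of all genes were called higher, with a median of 0.57. Pax7 was not called (38.7 to 79.6 against 41.8 to 85.9 CPM), and Calcr was lower without overlap but not called (124 to 160 against 174 to 257 CPM; edgeR unadjusted p = 0.0122). With total counts 3 of the 12 were called higher and 3 lower, and with TMM from genes of at least 50 CPM 3 higher and 5 lower, Pax7 and Calcr among the lower in both. Markers of the other cell types were called lower or not at all by edgeR. Medians were -0.77 for fibro-adipogenic markers, where Smoc2 was lower (7.18 ± 3.55 against 104 ± 77.6 CPM, SD, n = 4 each), -0.62 for endothelium, where Ramp2 was lower (16.9 ± 5.79 against 42.2 ± 10.0 CPM), -0.31 for smooth muscle and pericytes, where Cspg4 was lower (13.8 ± 3.05 against 31.5 ± 12.7 CPM), and -1.14 for tenocytes, beside 0.17 for mature fibre. The part of these markers in the result was not tested.

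Among the ligands, Hbegf, which encodes a heparin-binding ligand of EGFR and ERBB4, had the highest level per kb. It stood at 184, 139, 227 and 175 CPM in FosGFP+ replicates 1 to 4 and at 83.8, 82.4, 129 and 95.6 CPM in FosGFP-. Every FosGFP+ library was above every FosGFP- library. Means of 181 ± 35.9 and 97.6 ± 21.6 CPM (SD, n = 4 each) gave a log2 fold change of 0.89 ± 0.21 (SE; edgeR adjusted p = 0.00879). The call was lost with scaling by total counts (0.51, adjusted p = 0.0921), with TMM from genes of at least 50 CPM (0.32, adjusted p = 0.207) and after taking off the even background (0.71, adjusted p = 0.0595).

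Ereg encodes epiregulin, a ligand of EGFR and ERBB4. Its libraries held 20.3, 18.0, 13.7 and 17.6 CPM in FosGFP+ and 5.12, 3.73, 4.89 and 6.87 CPM in FosGFP-, with no overlap. The log2 fold change of 1.75 ± 0.33 (SE) was the largest among the 8 genes (edgeR adjusted p = 0.00256), and the call held in all 18 alternatives. The FosGFP- value rests on 23, 13, 17 and 23 reads, while an even background alone would give 15.4 to 17.6 reads there. In FosGFP+ the gene had 85, 86, 48 and 81 reads against 12.7 to 15.9 from such a background. Such a background could thus supply 74.6% to 131% of the FosGFP- reads and 14.8% to 28.1% of the FosGFP+ reads. With it taken off, the log2 fold change was 3.69. Few reads are then left in FosGFP-, where such a background exceeds the 13 reads of replicate 2, so this size is not firm.

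Areg encodes amphiregulin, a lower-affinity ligand of EGFR. Its libraries held 4.77, 11.1, 4.55 and 9.58 CPM in FosGFP+ and 3.79, 3.16, 0.288 and 3.58 CPM in FosGFP-. The FosGFP+ libraries were all higher, but FosGFP- replicate 3 has 1 read and the others 11 to 17. The log2 fold change of 1.46 ± 0.57 (SE) was not called by edgeR (adjusted p = 0.115) and was called by DESeq2 (1.59, adjusted p = 0.0417). Adjusted p ran from 0.0417 to 0.27 over the alternatives.

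Tgfa, which encodes transforming growth factor alpha, was the only one of the 8 below 0. It stood at 18.1, 12.7, 10.8 and 12.0 CPM in FosGFP+ and at 26.3, 23.3, 11.8 and 20.9 CPM in FosGFP-, and the groups overlapped. Its log2 fold change was -0.62 ± 0.31 (SE; edgeR adjusted p = 0.225). It was called lower with scaling by total counts (-1.02, adjusted p = 0.0469) and with TMM from genes of at least 50 CPM (-1.21, adjusted p = 0.019).

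Of the receptors, Egfr stood at 398, 519, 468 and 523 CPM in FosGFP+ and at 223, 345, 316 and 211 CPM in FosGFP-. The groups did not overlap. Means of 477 ± 58.3 and 274 ± 66.7 CPM (SD, n = 4 each) gave a log2 fold change of 0.80 ± 0.19 (SE; edgeR adjusted p = 0.0124). The call was lost under TMM from genes of at least 50 CPM (0.23, adjusted p = 0.227), under total counts (0.41, adjusted p = 0.075) and with the even background taken off (0.61, adjusted p = 0.0533). Erbb2 stood at 12.9, 37.4, 45.5 and 24.2 CPM in FosGFP+ and at 20.5, 23.8, 14.1 and 14.0 CPM in FosGFP-. FosGFP+ replicate 1 was the lowest of all 8 libraries and the other FosGFP+ libraries were above all of FosGFP-. Its log2 fold change was 0.72 ± 0.35 (SE; edgeR adjusted p = 0.202), and 1.01 (adjusted p = 0.0372) without that replicate.

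Both feedback inhibitors were higher in FosGFP+. Errfi1 stood at 5318, 6032, 3917 and 4806 CPM in FosGFP+ and at 2369, 2642, 3404 and 1724 CPM in FosGFP-, which put the lowest FosGFP+ library above the highest FosGFP- library. For Errfi1 the log2 fold change was 0.99 ± 0.21 (SE; edgeR adjusted p = 0.00523), and the call held in all 18 alternatives, at 0.41 to 1.17. Lrig1 stood at 522, 482, 377 and 456 CPM in FosGFP+ and at 174, 329, 247 and 145 CPM in FosGFP-. Its groups did not overlap, and the log2 fold change was 1.04 ± 0.23 (SE; edgeR adjusted p = 0.0075). This call was lost with TMM from genes of at least 50 CPM alone (0.48, adjusted p = 0.0589). Errfi1 reads exceeded the even background by far (0.258% of its reads at most), as did those of Lrig1 (4.80% at most).

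The authors' deposited table, which lists only adjusted p under 0.05 and whose signs were turned round here, holds 6 of the 8 genes. As deposited, 3398 of its 3422 rows had the opposite sign to the edgeR fit, where rows of genes outside that fit could not be counted. All 69 rows of the authors' table for FoscKO and Control also had the opposite sign. The signs were turned to match the fit, so they are no separate evidence of direction. In the authors' deposited table the log2 fold changes were 0.94 for Hbegf (adjusted p = 1.49e-04), 1.22 for Areg (adjusted p = 0.0391), 1.69 for Ereg (adjusted p = 1.58e-06), 0.86 for Egfr (adjusted p = 9.99e-04), 1.03 for Errfi1 (adjusted p = 2.07e-04) and 1.06 for Lrig1 (adjusted p = 3.60e-04), as DESeq2 names its columns. Areg is the gene on which that table and the edgeR test differ.

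**Figure D2:**
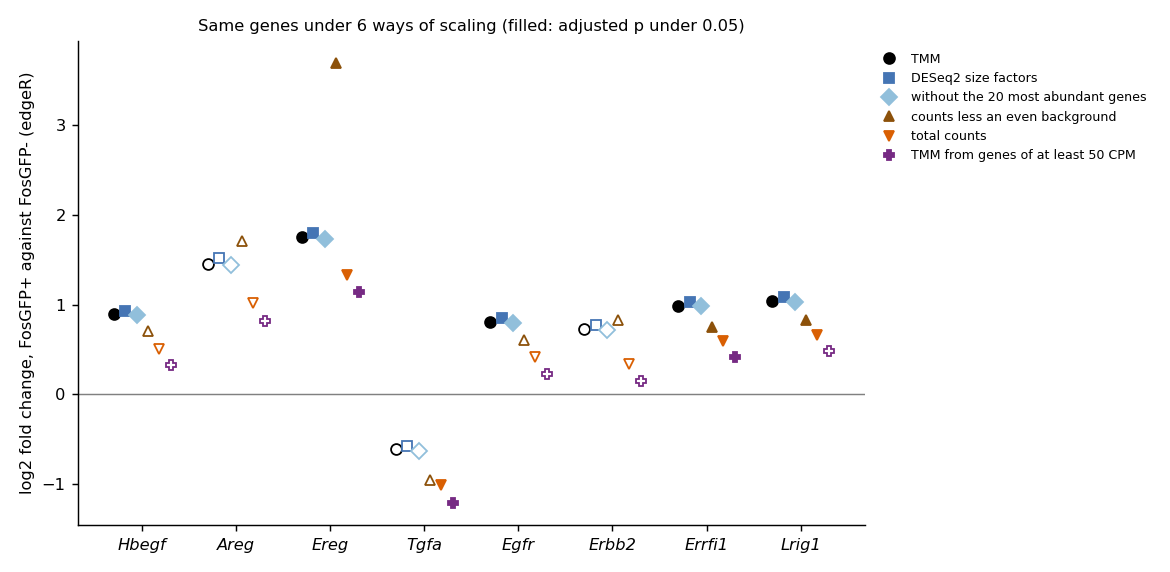
The log2 fold change of each gene between FosGFP+ and FosGFP- (y axis, edgeR) under 6 ways of scaling the libraries, filled where the adjusted p is under 0.05. Ereg and Errfi1 are filled in all 6, Hbegf and Egfr in 3, Lrig1 in 5, and Tgfa is filled, below 0, under total counts and under TMM from genes of at least 50 CPM.

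Calls across the whole table depended on the scaling. Scaling by total counts moved the median log2 fold change of all genes tested by -0.40, and TMM from genes of at least 50 CPM moved it by -0.58. Calls of all genes went from 2125 higher and 383 lower to 1005 higher and 2243 lower with total counts and to 722 higher and 5252 lower with TMM from genes of at least 50 CPM. Under both, 7 of the 8 genes were above 0 and Tgfa was below it.

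The machinery that frees the ligands was counted next, from a list of 8 shedding genes. By unadjusted p, 5 of these were higher and none lower, beside 5457 of all 20698 genes tested in either direction. By edgeR adjusted p, 4 were higher in FosGFP+ and none lower, and the list had a median log2 fold change of 0.62. All 4 are among the 6 shedding genes of at least 50 CPM, a class in which 41.9% of all genes were called higher. They were Adam17, the protease that frees Hbegf, Areg, Ereg and Tgfa (137 ± 11.4 against 80.2 ± 8.33 CPM, SD, n = 4 each; log2 fold change 0.77 ± 0.17, SE, adjusted p = 0.00727), its carriers Rhbdf1 (0.90) and Rhbdf2 (0.65), and Adam9 (1.21), whose groups overlapped. With total counts none was called in either direction. With TMM from genes of at least 50 CPM none was called higher and Adam10 (-0.74) and Adam12 (-1.04) were called lower, and with the even background taken off Adam17 alone was called.

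Of 7 other ligands of the family, Epgn had too few reads to test, and none of the 6 tested was called by edgeR in either direction (none by unadjusted p, by DESeq2 or by limma-voom), with a median of -0.49. Nrg2 was lower without overlap, as were 6.45% of all genes tested. It stood at 0.953 to 2.72 against 2.90 to 5.08 CPM (-1.08, edgeR unadjusted p = 0.0593). The highest per kb were Nrg3 (16.3 ± 6.12 against 23.0 ± 3.28 CPM, SD, n = 4 each; -0.50) and Egf (16.9 ± 3.25 against 22.3 ± 4.47 CPM; -0.40). With TMM from genes of at least 50 CPM, Egf, Nrg1, Nrg2, Nrg3 and Nrg4 were called lower. The other receptors, Erbb3 (11.7 ± 1.37 against 17.6 ± 2.43 CPM; -0.59) and Erbb4 (7.71 ± 2.33 against 14.3 ± 3.27 CPM; -0.89), were not called by edgeR, DESeq2 or limma-voom, although neither had overlapping groups and Erbb4 had an unadjusted p = 0.0219. Both were called lower with total counts and with TMM from genes of at least 50 CPM.

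Of 15 other genes that restrain the receptor, 3 were higher and 1 was lower, with a median of 0.09. Over all genes tested, 10.3% were called higher and 1.85% lower. Of the 5 restraint genes of at least 50 CPM, 2 were called higher, near the 41.9% of all genes in that class. The phosphatase genes Ptpn12 (0.94) and Ptpn1 (0.83) and Socs4 (0.73) were higher. Socs3, better known as an inhibitor of cytokine receptors and a STAT3 target, was lower, at 412 ± 67.7 against 884 ± 138 CPM (SD, n = 4 each), with a log2 difference of -1.10 ± 0.18 (SE; edgeR adjusted p = 9.25e-04). The Socs3 call held in every scaling. With total counts, and likewise with TMM from genes of at least 50 CPM, none of the 15 was called higher and 3 were called lower: Socs3, Lrig2 (-0.60 and -0.80) and Zgpat (-0.79 and -0.98).

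A list of 24 genes covered the path from receptor to ERK, with side branches such as Stat3 and Pik3ca and the RAS inhibitors Rasa1 and Nf1. Among them, 10 were higher in FosGFP+ and none lower by edgeR, with a median of 0.60. By unadjusted p, 13 were higher and none lower, beside 5457 of all 20698 genes tested in either direction. DESeq2 and limma-voom called none of the 24 lower. Of the 24, 18 have at least 50 CPM, and 9 of these were called higher, beside 41.9% of all genes in that class. Among those with the smallest p were Stat3 (1.70), a transcription factor that receptors activate directly, the adaptors Grb2 (1.49) and Shc1 (1.10), the RAS gene Nras (0.89), and Map2k1 (0.90), which encodes MEK1. Grb2, which links the receptor to RAS, stood at 86.4 ± 22.3 against 30.8 ± 0.872 CPM (SD, n = 4 each). The count fell to 4 higher and 2 lower with total counts, and to 4 higher and 4 lower with TMM from genes of at least 50 CPM, with Stat3, Grb2 and Shc1 higher in both. Araf (-0.66 and -0.84) and Pik3r1 (-0.69 and -0.88) were lower in both, and Gab1 (-0.74) and Mapk3 (-0.63) under the latter.

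Genes that ERK signalling is known to induce were counted in a list of 10, of which Etv4 had too few reads to test. Of 9 tested, 5 were higher and none lower by edgeR (6 higher and 1 lower by unadjusted p, none lower by DESeq2 or limma-voom), with a median of 0.81. They were the ERK phosphatase genes Dusp6 (124 ± 9.90 against 50.8 ± 9.85 CPM, SD, n = 4 each; 1.29) and Dusp4 (1.10), the receptor pathway inhibitors Spry2 (1.50) and Spry4 (0.81), and Epha2 (0.92). Of the 9 tested, 4 have at least 50 CPM, and 3 of these were called higher. The background is 41.9% of all genes in that class and 10.3% of all genes tested. By unadjusted p, 5457 of all 20698 genes tested passed in either direction. Phlda1, the highest of the list per kb, was not called (84.9 ± 11.6 against 109 ± 37.7 CPM; -0.36). Dusp6 and Spry2 were called higher in every scaling, while Phlda1 and Epha4 were called lower with total counts and with TMM from genes of at least 50 CPM, and Ccnd1 also under the latter.

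**Figure D3:**
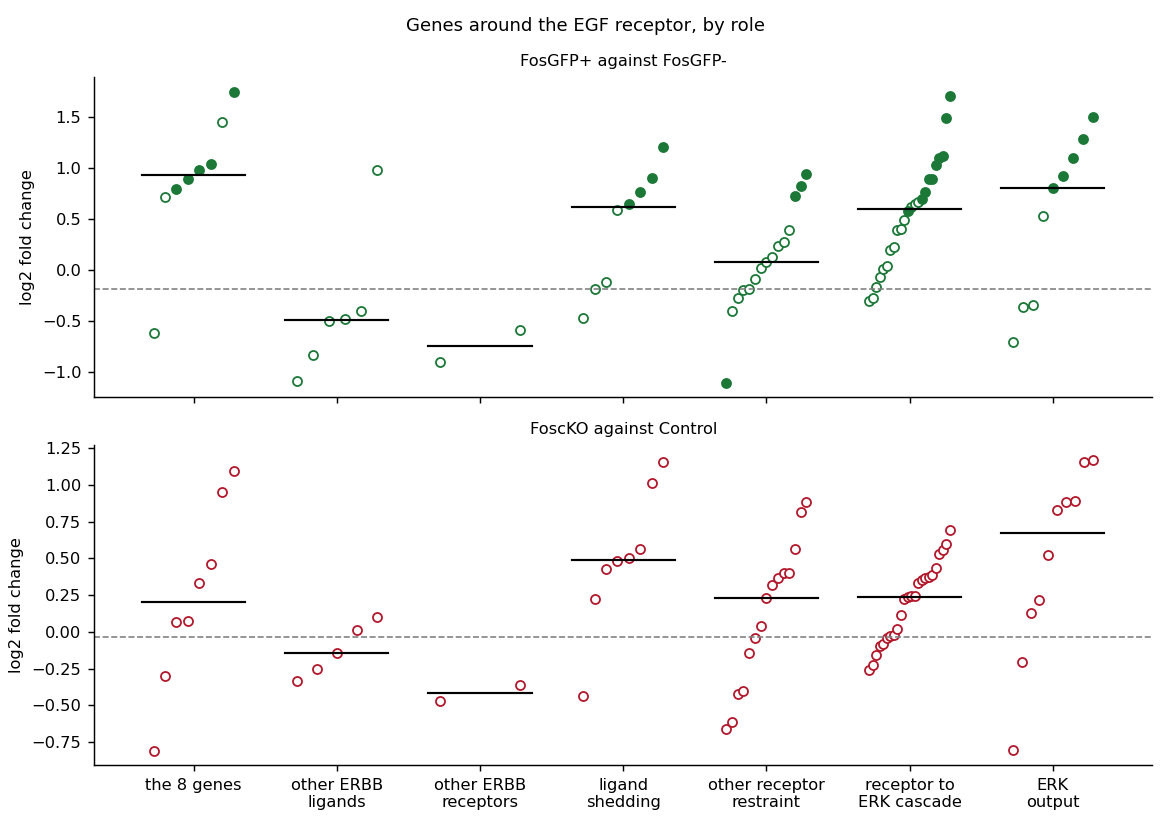
Log2 fold change of each tested gene by role, for FosGFP+ against FosGFP- (upper panel) and FoscKO against Control (lower panel), ordered within each list, with filled points at adjusted p under 0.05. Solid lines are list medians and the dashed line is the median of all genes tested; the 8 genes have a median of 0.94 above and 0.20 below, where no point is filled.

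The second comparison asks what the conditional knockout of Fos changes. No gene of the 8 was called in either direction by edgeR, and 0% of the 21885 genes tested were called higher or lower. By unadjusted p, 1208 genes passed, 2 of the 8 among them, while DESeq2 called 69 genes and limma-voom 6, none of them among the 8. The median log2 fold change of the 8 was 0.20, beside -0.04 over all genes tested, with 6 of 8 above 0. The 2 with an unadjusted p under 0.05 were Lrig1 and Erbb2, and both had FoscKO above Control with no overlap, as for 5.75% of all genes higher and 6.47% lower. The authors' deposited table for this comparison holds none of the 8.

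Lrig1 stood at 808, 667 and 492 CPM in FoscKO and at 372, 309 and 241 CPM in Control. Means of 656 ± 159 and 307 ± 65.9 CPM (SD, n = 3 each) gave a log2 fold change of 1.09 ± 0.29 (SE; edgeR unadjusted p = 0.00199, adjusted p = 0.444). Adjusted p ran from 0.0723 to 1.00 over the alternatives, and without FoscKO replicate 1 the log2 fold change was 0.91 (adjusted p = 0.199). Erbb2 stood at 46.0, 36.3 and 36.9 CPM in FoscKO and at 16.7, 20.5 and 24.3 CPM in Control. Its log2 fold change was 0.96 ± 0.29 (SE; edgeR unadjusted p = 0.00575, adjusted p = 0.644), with adjusted p from 0.226 to 1.00 over the alternatives, and 0.84 without FoscKO replicate 1.

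All 4 ligands had overlapping groups. Hbegf stood at 158, 85.4 and 129 CPM in FoscKO and at 136, 102 and 118 CPM in Control, a log2 fold change of 0.07 ± 0.27 (SE) whose sign turned in 6 of 16 alternatives. Areg stood at 4.86, 6.90 and 7.09 against 6.93, 3.51 and 3.26 CPM (0.46 ± 0.55). Ereg stood at 2.97, 5.40 and 9.02 against 10.5, 5.81 and 0.326 CPM (0.07 ± 0.81, sign turned in 5 of 16 alternatives), with 2 reads in Control replicate 3 where an even background would give 19.3. Tgfa stood at 1.89, 21.1 and 16.1 against 18.5, 24.0 and 25.6 CPM (-0.81 ± 0.58). FoscKO replicate 1, the deepest library, held 14 Tgfa reads where an even background would give 21.3, and without it the log2 fold change of Tgfa was -0.29.

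Egfr and Errfi1 overlapped between the groups. Egfr stood at 577, 381 and 309 CPM in FoscKO and at 446, 298 and 260 CPM in Control (0.33 ± 0.31, SE; 0.04 without FoscKO replicate 1). Errfi1 stood at 3328, 2056 and 1971 CPM in FoscKO and at 3038, 3176 and 2844 CPM in Control. FoscKO replicate 1 was the highest library and the other FoscKO libraries were below all of Control. Errfi1 had a log2 fold change of -0.30 ± 0.31 (SE; edgeR adjusted p = 0.917), and -0.58 (adjusted p = 0.599) without that replicate.

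**Figure D4:**
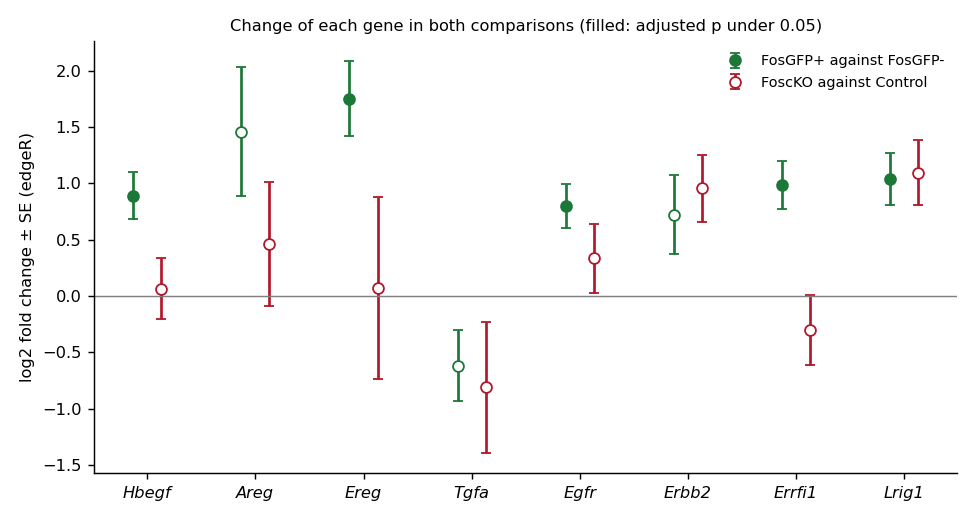
Log2 fold change with its SE (y axis, edgeR) of each gene in FosGFP+ against FosGFP- (green) and in FoscKO against Control (red), filled where the adjusted p is under 0.05. Hbegf, Ereg, Egfr, Errfi1 and Lrig1 are filled in green and none in red; Errfi1 is at 0.99 in green and -0.30 in red, and Lrig1 at 1.04 and 1.09.

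No companion gene was called in FoscKO either. Medians were 0.49 for the 8 shedding genes, -0.15 for the 5 other ligands tested, -0.42 for the 2 other receptors, 0.23 for the 15 restraint genes, 0.24 for the 24 genes of the cascade and 0.67 for the 10 ERK output genes. Of these lists, 2 shedding genes, 2 restraint genes and 4 ERK output genes (3 higher, 1 lower) had an unadjusted p under 0.05. None of the ligands, receptors and cascade genes did, beside 1208 of all 21885 genes tested. DESeq2 and limma-voom called no gene of these lists. Among the highest per kb, Rhbdf2 stood at 242 ± 115 against 109 ± 32.9 CPM (SD, n = 3 each; 1.16), Phlda1 at 321 ± 166 against 144 ± 16.7 CPM (1.16) and Dusp6 at 275 ± 110 against 122 ± 52.5 CPM (1.17). Rhbdf1 (0.43), Socs3 (0.82), Ptpn12 (-0.04), Stat3 (0.60), Map2k1 (0.02), Nrg3 (-0.25), Egf (0.10), Erbb3 (-0.47) and Erbb4 (-0.36) make up the rest of the highest. Without FoscKO replicate 1 the median was 0.45 for the ERK output list, 0.04 for the restraint list, 0.13 for the cascade and 0.37 for the shedding list. With total counts the cascade median was -0.01. Mature fibre markers summed to 639 to 1656 CPM in FoscKO and 1552 to 2989 CPM in Control, with 1 of 12 above 0. None of the 12 was called by edgeR or limma-voom, and 8 were lower by unadjusted p. DESeq2 called Myh4 (-1.25) and Mylpf (-1.84) lower, the replicate block and scaling by total counts each called Myh4 and Ckm lower, as did TMM from genes of at least 50 CPM, and without FoscKO replicate 1 all 3 were called lower. Their part in these values was not tested.

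Areg, Ereg and Tgfa rest on few reads. Reads of Areg per library ran from 1 to 53 in the first table and from 20 to 59 in the second, and those of Ereg from 13 to 86 and from 2 to 75. An even background could supply 23.5% to 59.1% of the Tgfa reads in FosGFP- and 30.6% to 55.8% in FosGFP+. For Hbegf this share was 6.95% at most in the first table, and for Egfr 6.65% at most.

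**Figure D5:**
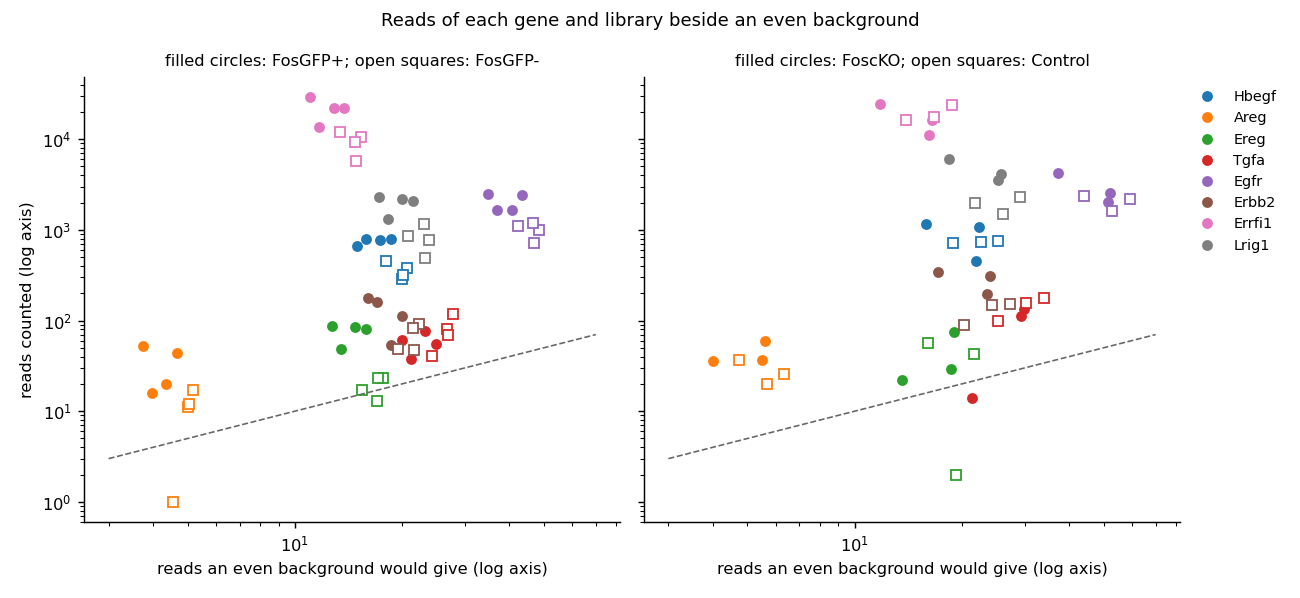
Reads counted for each gene and library (y axis, log) beside the reads an even background would give from the exonic length (x axis, log), for FosGFP+ and FosGFP- (left) and FoscKO and Control (right). The dashed line marks equal values: Ereg in FosGFP- lies on it, with 13 to 23 reads, while the background would give at most 0.258% of the Errfi1 reads of any library.

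The genes most alike in pattern were found by Pearson r of log2(CPM + 1) over the 8 libraries of the first table, among genes of at least 20 CPM. The libraries differ in depth and background and fall into the 2 groups compared, so these r values describe and do not test. Errfi1 was closest to Wac (0.997), Edem1 (0.994) and Suz12 (0.991), Lrig1 to Arl5a (0.994), Ranbp2 (0.989) and Syap1 (0.985), and Egfr to Mdfic (0.991), Tpp2 (0.99) and Erbin (0.988). Hbegf was closest to Gtf2f1 (0.979), Baiap2 (0.974) and Xpo4 (0.973), Ereg to Mir17hg (0.987), Gal (0.982) and Nras (0.982), and Areg to Slc38a1 (0.964) and 5031425E22Rik (0.963). Erbb2 was closest to Nptn (0.951), Dis3l2 (0.933) and Tnpo2 (0.932), and Tgfa to Pik3ip1 (0.973), Rab30 (0.967) and Cnst (0.96). Over the 6 libraries of the second table, Lrig1 was closest to Lif (0.997), Zfc3h1 (0.996) and Pogk (0.986), and Erbb2 to Cnot6l (0.996), Ints3 (0.992) and 9330159F19Rik (0.989).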

How the data were processed

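The 14 libraries were grouped by the genotype in the labels, and the 2 tables were fitted apart. Per the labels' protocols, cDNA was made with SMART-Seq v4 and tagged with Nextera XT for an Illumina HiSeq. The submitters' processing notes name DESeq2 1.20.0, limma, HTSeq 0.6.1, STAR 2.5.0c and the build GRCm38, without roles. The authors deposited raw counts per gene, with 69.8% to 89.7% of each library's reads in lines that name no gene, which were left out. They also deposited tables of log2 fold changes with their errors and of p-values. These were read as deposited, except that the signs of the log2 fold changes were turned round. In the same tables, 14 columns of per-library values match no label and were not used. Positions and exonic lengths came from GENCODE M21.

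Counts were filtered by filterByExpr, scaled by TMM and tested with edgeR 4.0.16 (glmQLFit, robust, and glmQLFTest, two-sided; R 4.3.3), with no covariate and Benjamini-Hochberg adjusted p under 0.05 over all genes tested. CPM uses the TMM library size. Alternatives were total counts, DESeq2 size factors, library sizes without the 20 most abundant genes, TMM computed on genes of at least 50 CPM, a minimum of 5 CPM, no filter, DESeq2 1.42.0, limma-voom (limma 3.58.1), a block for the replicate number, counts less an even background (reads per exonic kb over 1469 sensory receptor genes), and each library left out. Named genes are the 8, the called genes of each list up to 6 by smallest p with the 2 highest per kb, Fos, and the 3 closest in pattern. The genes, lists and alternatives were chosen with earlier results of these data known, and genes called only under an alternative were named after their values were seen. Some genes that this rule names are not reported here.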

Additional observations from a re-analysis of the deposited data

How the results depend on the processing

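Genes called between FosGFP+ and FosGFP- were 2508, against 5974 with TMM from genes of at least 50 CPM and 1579 with the even background taken off, and 1893 to 2566 with a library left out. Of the 8 genes, 5 were called higher, against 3 with total counts, 2 with TMM from genes of at least 50 CPM, 3 with the even background taken off and 5 to 6 with a library left out. Tgfa was the 1 gene called lower with total counts and with TMM from genes of at least 50 CPM. Between FoscKO and Control no gene was called, against 45 with total counts, 44 with TMM from genes of at least 50 CPM, 131 with no filter, 32 with a filter at 5 CPM, 6 with limma-voom, 69 with DESeq2, 15 with the even background taken off and 0 to 43 with a library left out. The 43 were called without FoscKO replicate 1. None of the 8 was called there in any of the 16 alternatives. Directions turned for Hbegf in FoscKO with total counts (-0.181), with TMM from genes of at least 50 CPM (-0.187), a filter at 5 CPM (-0.0381) and the even background taken off (-0.0724), and it ran from -0.14 to 0.29 with a library left out. Ereg turned with total counts (-0.0223), with TMM from genes of at least 50 CPM (-0.0294) and with the even background taken off (-0.164), and ran from -0.48 to 0.91 with a library left out. The causes were not tested.

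Same-numbered libraries did not deviate together in the first table (correlations of -0.01 to 0.03). In the second the correlations were -0.05 to 0.22, highest for replicate 1, while FoscKO 2 and Control 3 reached 0.23. In all, 0 of 4 FosGFP+ and 1 of 3 FoscKO libraries correlated best with their own number. With the replicate block, 5 of the 8 genes were called higher in FosGFP+ and 2280 genes in all, and 43 genes in FoscKO.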
